A study of Mus musculus with 12 samples.

Results

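NF-kB is a family of Rel transcription factors that IkB proteins hold inactive in the cytoplasm until a receptor of the TNF, interleukin 1 or Toll-like families switches on the kinases that remove them. In the canonical branch, dimers such as RelA with p50 are freed when IkB alpha is degraded. In the noncanonical branch, the p100 protein made from Nfkb2 is processed to p52, which acts with RelB. The canonical branch switches on its own inhibitors, among them IkB alpha and A20, so their RNA is a usual readout of that branch. Injured kidney tubules are a known site of NF-kB activity.

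The genes described here were 9 NF-kB pathway and target genes, found in the table of 27179 genes by their NCBI Gene numbers. They were chosen with earlier results of these data known, so their counts beside all genes are descriptions. They were the cytokines Tnf and Il1b, the receptor gene Tnfrsf12a, the Rel subunit genes Nfkb2 and Relb, the inhibitor genes Nfkbia and Tnfaip3, the survival gene Birc3 and the adhesion gene Icam1. All 9 were present and all 9 passed the filter on low values, for which 3 or more of the 12 libraries had to reach 1 TPM (transcripts as a share of all transcripts, scaled to 1000000), and which 14972 genes passed. Tnf passed through exactly 3 libraries, all from cisplatin-treated mice, so its filter is not independent of the treatment.

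The libraries were made from whole kidneys of 12 mice, 3 in each of 4 groups, on a mixed strain background and 8 to 12 weeks old. Wild-type mice and FAN1KO mice, labelled γGT1-Cre;Fan1-/-, received saline or cisplatin, a DNA crosslinking drug, at 2 mg/kg by intraperitoneal injection each week for 5 weeks. The Cre in FAN1KO mice is driven by Ggt1 and acts in the proximal tubule, so other kidney cells keep Fan1, and the labels give the wild-type mice no Cre. FAN1 is a nuclease that repairs DNA crosslinks, and its loss causes karyomegalic interstitial nephritis (KIN). The comparisons ask how the NF-kB genes differ between genotypes without and with cisplatin, and whether cisplatin moves them differently in FAN1KO and wild-type kidneys.

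Recovered reads per library ran from 37201911 to 82946961, and 1 read in a gene of 1 kb was worth 0.020 to 0.0479 TPM. Fan1 RNA of whole kidney did not check the genotypes: its level was 1.98 to 3.80 TPM in wild-type saline, 1.17 to 2.28 in FAN1KO saline, 2.33 to 3.57 in wild-type cisplatin and 1.55 to 3.51 in FAN1KO cisplatin libraries. Proximal tubule markers summed to 1146 TPM or more in all 12 libraries. RNA of 4 Y-linked genes was high in 1 library of each group, namely replicate 3 of wild-type saline and of FAN1KO cisplatin, and replicate 1 of FAN1KO saline and of wild-type cisplatin. These 4 libraries held the lowest value of their group for 65.4% to 69.5% of all genes tested, and FAN1KO cisplatin 1 held the highest of all 12 for 46.8%.

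The promoter sequences below are shown because NF-kB dimers recognise a short, near-palindromic DNA sequence, the kB site, and each of these 4 stretches, selected from the 9 genes' promoters, holds such letters. They are RefSeq sequences of GRCm38.p6, read 5′ to 3′ on the strand of the gene, and capitals mark matches to the NF-kB consensus decamer or to GGAAATTCC on either strand. The first 3 cover positions -60 to -1 before the annotated start of transcription. The Icam1 stretch covers positions -180 to -121.
Nfkb2, chr19:46304677-46304736, plus strand: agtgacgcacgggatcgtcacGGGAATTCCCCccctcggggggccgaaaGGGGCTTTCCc
Nfkbia, chr12:55492648-55492707, minus strand: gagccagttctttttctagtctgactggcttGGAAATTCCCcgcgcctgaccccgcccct
Tnfaip3, chr10:19015411-19015470, minus strand: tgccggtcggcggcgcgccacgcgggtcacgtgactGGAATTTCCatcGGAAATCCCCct
Icam1, chr9:21015760-21015819, plus strand: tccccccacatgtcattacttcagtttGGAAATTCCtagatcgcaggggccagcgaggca

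The table of promoters, which holds 250 bases before and 50 after each start, had 11 promoters for 8 of the 9 genes, all but Relb. The decamer was found in 5 of these 11, from Nfkb2, Nfkbia and Tnfaip3, and in 4.51% of all 32851 promoters. GGAAATTCC was found for 3 of the 8 genes, Icam1, Tnfaip3 and Nfkbia, and in 0.317% of all promoters, and in Nfkbia it overlaps the decamer. The Nfkb2 stretch holds overlapping matches at -39 to -29 and another match at -11 to -2. Further decamer matches lie outside the printed stretches, at -125 to -116 in Tnfaip3 and, in other Nfkb2 promoters, at -236 to -227, 11 to 20 and -225 to -216. These matches describe letters in a window and are not measured binding sites.

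In cisplatin-treated kidneys, 7 of the 9 genes were higher in FAN1KO than in wild-type mice, namely Tnfrsf12a, Icam1, Relb, Nfkb2, Birc3, Nfkbia and Tnfaip3. A gene is called higher or lower here at an adjusted p under 0.05 from limma, which was fitted to log2(TPM + 1) of all 12 libraries with Benjamini–Hochberg adjustment over all genes tested. Of all genes tested, 19.6% were called higher in this comparison and 4.37% lower. For the same 7 genes each FAN1KO library exceeded each wild-type library, which held for 35.7% of all genes tested, with 8.6% wholly lower. The median log2 fold change was 1.47 over the 9 genes and 0.24 over all genes. Neither cytokine gene, Tnf nor Il1b, was called. In bulk kidney RNA, more cells that express a gene and more RNA per cell cannot be told apart.

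**Figure D1:**
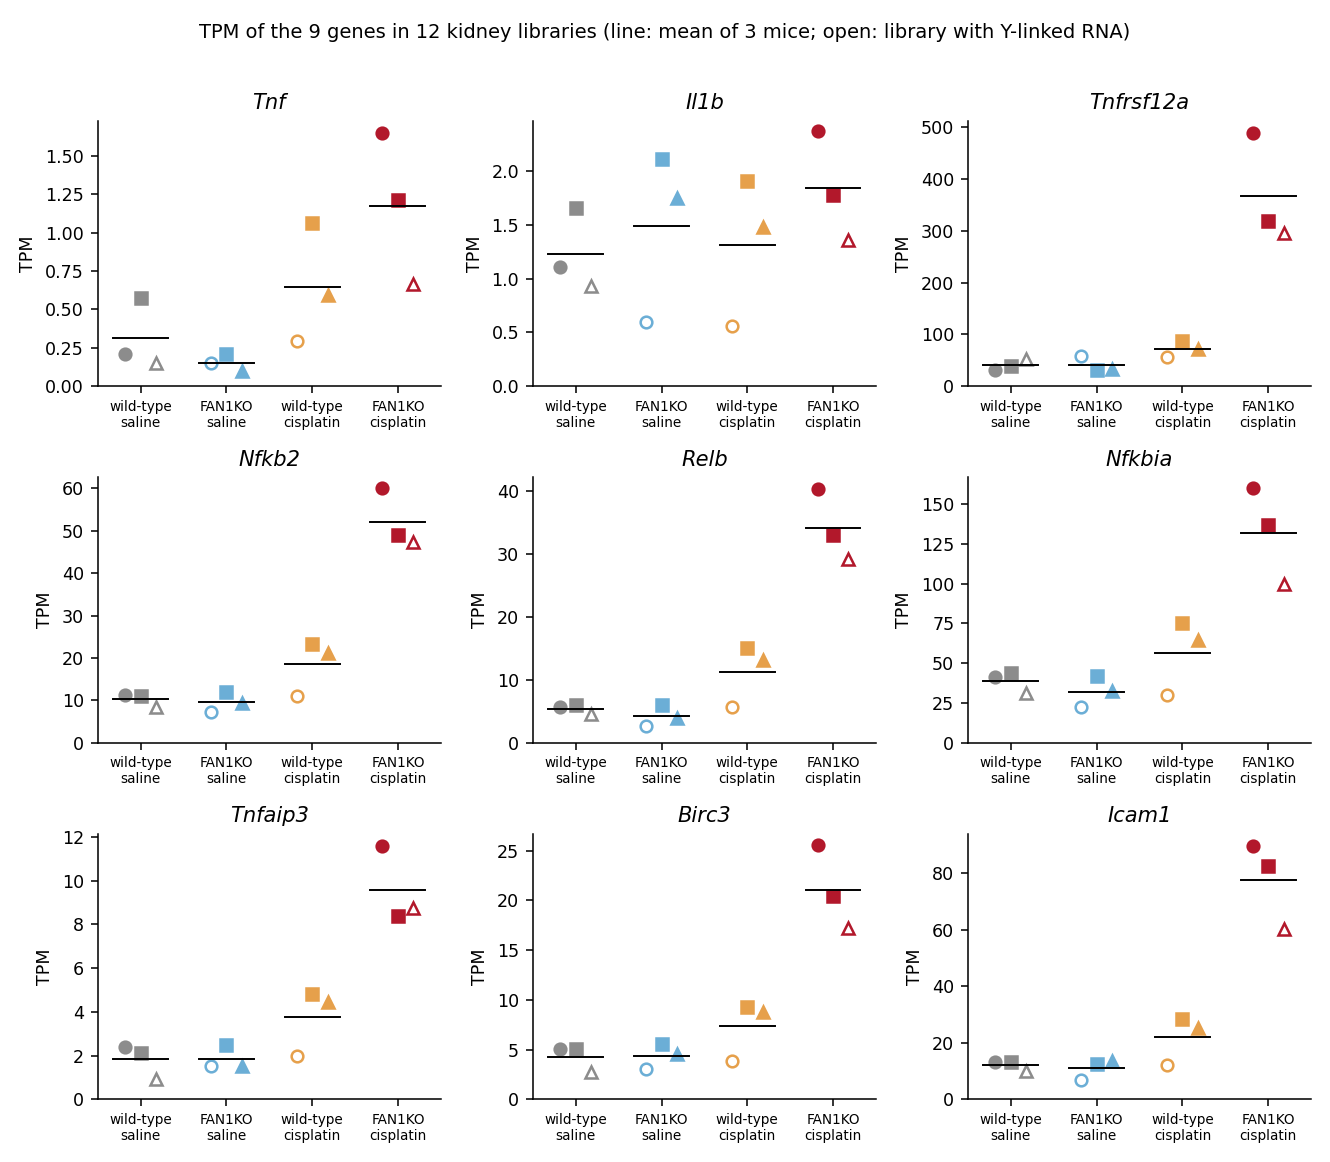
TPM of each of the 9 genes (vertical axis, starting at 0) in the 3 libraries of each of 4 groups (horizontal axis). Circles, squares and triangles are replicates 1, 2 and 3, open symbols the 4 libraries with Y-linked RNA and lines the group means. For 7 genes the FAN1KO cisplatin libraries lie above all 9 others, while Il1b overlaps in every group and Tnf reaches 0.669 in the lowest FAN1KO cisplatin library and 1.06 in the highest wild-type one.

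The ligands are described first. Tnf (gene 21926, chr17:35199367-35202007), the cytokine whose receptors are a main switch of NF-kB, was scarce in every kidney. Its levels were 0.212, 0.575 and 0.148 TPM in wild-type saline, 0.148, 0.207 and 0.0988 in FAN1KO saline, 0.292, 1.06 and 0.591 in wild-type cisplatin and 1.65, 1.21 and 0.669 in FAN1KO cisplatin libraries, from 4 to 56 reads. The FAN1KO cisplatin libraries were above every FAN1KO saline library, but the genotypes overlapped under cisplatin. Under cisplatin the genotypes differed by a log2 fold change of 0.40 (95% interval -0.11 to 0.91, limma adjusted p 0.226). With cisplatin, Tnf rose in FAN1KO kidneys by 0.89 on the log2(TPM + 1) scale (SE 0.23, limma adjusted p 0.0118), a scale that understates changes of so low a gene, and its mean TPM was 7.79 times that with saline. Without FAN1KO cisplatin 1 that call was lost (limma adjusted p 0.0521). Tnf passed the filter only through cisplatin libraries, so the call is given as a description.

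Il1b (16176, chr2:129364569-129371164), the inflammatory cytokine interleukin 1 beta, did not pass the test in any comparison. Its levels were 1.11, 1.66 and 0.932 TPM in wild-type saline, 0.593, 2.11 and 1.75 in FAN1KO saline, 0.557, 1.91 and 1.48 in wild-type cisplatin and 2.38, 1.78 and 1.36 in FAN1KO cisplatin libraries, from 23 to 67 reads. Every pair of groups overlapped. The genotype difference under cisplatin was 0.33 on the log2 scale (95% interval -0.34 to 1.00, limma adjusted p 0.459) and the change with cisplatin in FAN1KO kidneys was 0.23 (95% interval -0.44 to 0.90, limma adjusted p 0.564), whose upper ends lie near a doubling on this scale. Il1bos, which overlaps Il1b, had mean TPM of 0.105 to 0.319 over the groups, and reads of the pair could not be separated by strand here.

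Tnfrsf12a (27279, chr17:23675445-23677449) encodes Fn14, the receptor of the TNF family cytokine TWEAK, which signals to both NF-kB branches. It showed the largest genotype difference of the 9 genes under cisplatin. Its levels were 30.4, 38.3 and 52.4 TPM in wild-type saline, 57.7, 30.2 and 32.7 in FAN1KO saline, 55.8, 88.1 and 70.8 in wild-type cisplatin and 490.1, 319 and 296 in FAN1KO cisplatin libraries. The lowest FAN1KO cisplatin library was above 3 times the highest of the other 9. The mean under cisplatin was 368 ± 106 (SD, n = 3) in FAN1KO and 71.6 ± 16.1 in wild-type kidneys, a log2 fold change of 2.33 (SE 0.29, limma adjusted p 0.000845). Among the 9 genes it alone had wild-type cisplatin libraries wholly above the wild-type saline ones, a pattern found in 5.2% of all genes tested, with 1.08% wholly below. Hcfc1r1, which overlaps it, had mean TPM of 82.7 in wild-type and 132 in FAN1KO cisplatin libraries.

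The gene of the TWEAK ligand, Tnfsf12, was chosen for this comparison after its values were seen and was not called between the genotypes under cisplatin (log2 fold change 0.69, limma adjusted p 0.218). Its mean TPM was 12.2 ± 5.42 in wild-type saline, 9.10 ± 3.41 in FAN1KO saline, 11.8 ± 4.53 in wild-type cisplatin and 18.9 ± 2.52 in FAN1KO cisplatin libraries (SD, n = 3). The receptor to ligand ratio of TPM, a comparison per length of transcript, was 23.9, 15.9 and 18.5 in FAN1KO cisplatin libraries and 8.31, 5.74 and 5.27 in wild-type cisplatin libraries. These ratios did not overlap (exact permutation p 0.1, two-sided, the smallest that 3 against 3 mice allow). A ratio within a library does not depend on the scaling between libraries.

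Nfkb2 (18034, chr19:46300994-46312400) and Relb (19698, chr7:19606217-19629438) encode the partners of the noncanonical dimer, and Nfkb2 is itself an NF-kB target. The TPM of Nfkb2 was 11.3, 11.1 and 8.31 in wild-type saline, 7.28, 12.1 and 9.28 in FAN1KO saline, 11.0, 23.2 and 21.3 in wild-type cisplatin and 59.999, 49.0 and 47.4 in FAN1KO cisplatin libraries. Wild-type cisplatin 1 lay within the saline range, and the FAN1KO cisplatin libraries lay above all others. Under cisplatin the FAN1KO mean of 52.2 ± 6.84 was 2.82 times the wild-type mean of 18.5 ± 6.58, with a log2 fold change of 1.5 (SE 0.26, limma adjusted p 0.00379).

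Relb had lower levels in the same order. Its levels were 5.73, 5.91 and 4.54 TPM in wild-type saline, 2.72, 5.94 and 3.85 in FAN1KO saline, 5.63, 14.97 and 13.1 in wild-type cisplatin and 40.2, 32.9 and 29.2 in FAN1KO cisplatin libraries. Again wild-type cisplatin 1 lay within the saline range. The FAN1KO mean under cisplatin was 3.03 times the wild-type mean, with a log2 fold change of 1.61 (SE 0.32, limma adjusted p 0.00686). Psd and 4833438C02Rik overlap Nfkb2, and their mean TPM went from 4.05 to 6.84 and from 9.45 to 21.1 between wild-type and FAN1KO cisplatin kidneys, whereas Relb has no overlapping gene in the annotation used.

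The balance among the 5 Rel subunit genes, a quantity chosen after the values were seen, differed as well. Rela, Nfkb1 and Rel encode the subunits of the canonical branch and, with Nfkb2 and Relb, summed to a mean of 56.7 TPM in wild-type saline, 50.01 in FAN1KO saline, 81.7 in wild-type cisplatin and 175 in FAN1KO cisplatin libraries. The share of this sum from Nfkb2 and Relb was 27.6, 27.7 and 27.4% in wild-type saline, 26.5, 28.7 and 26.5% in FAN1KO saline, 30.9, 38.6 and 37.3% in wild-type cisplatin and 48.7, 49.97 and 49.5% in FAN1KO cisplatin libraries. Saline kidneys of the genotypes overlapped, wild-type cisplatin kidneys lay above them and FAN1KO cisplatin kidneys lay highest, with no overlap (exact permutation p 0.1 for each cisplatin comparison, the smallest possible). Rela itself was called higher in FAN1KO kidneys under cisplatin (log2 fold change 0.87, limma adjusted p 0.0104), with mean TPM of 65.8 ± 11.3 against 35.8 ± 8.00, and Rel stayed under 1 TPM in every library.

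**Figure D2:**
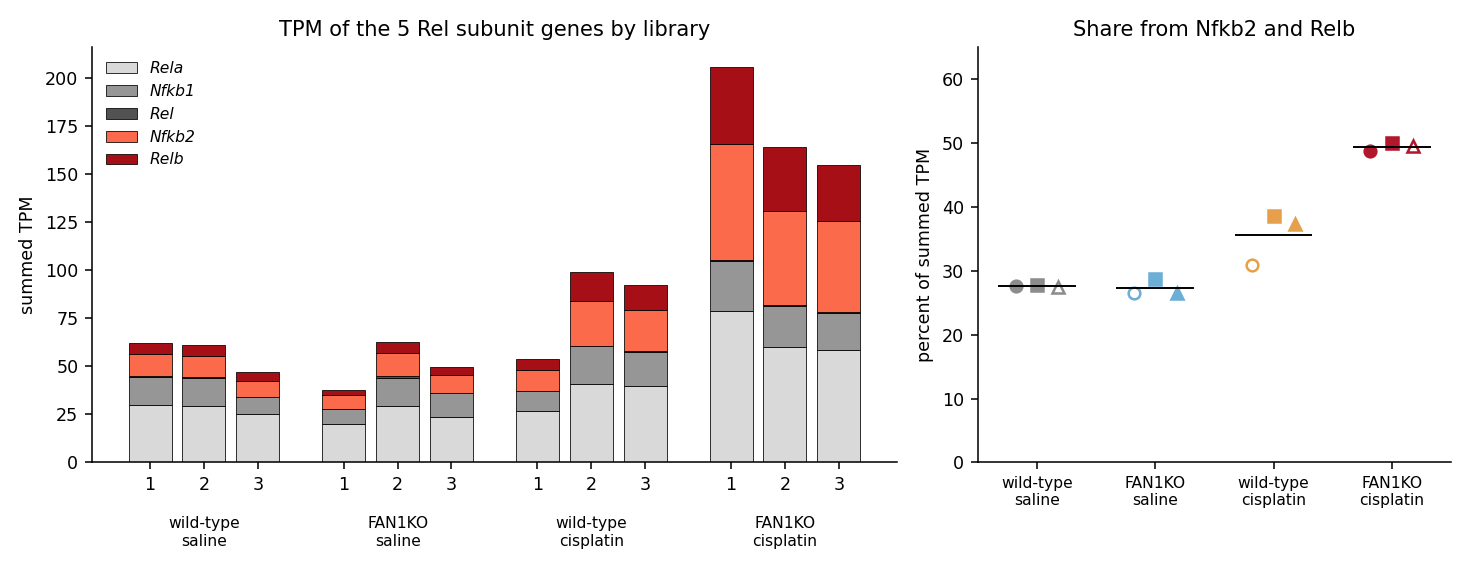
Left, stacked bars of the TPM of 5 Rel subunit genes in each of the 12 libraries (numbers are replicates); right, the percent of that sum from Nfkb2 and Relb, with symbols as in the plot of TPM by library. The share is 26.5 to 28.7% in the 6 saline libraries, 30.9 to 38.6% in wild-type cisplatin and 48.7 to 49.97% in FAN1KO cisplatin libraries.

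Nfkbia (18035, chr12:55489409-55492647) and Tnfaip3 (21929, chr10:19000910-19015410) encode IkB alpha and A20, the fast feedback inhibitors of the canonical branch. Nfkbia had TPM of 41.0, 44.1 and 31.5 in wild-type saline, 22.2, 41.8 and 32.3 in FAN1KO saline, 29.6, 75.1 and 64.8 in wild-type cisplatin and 159.9, 137 and 99.5 in FAN1KO cisplatin libraries. The genotypes did not overlap under cisplatin, although wild-type cisplatin 1 was below every wild-type saline library. The difference was 1.29 on the log2 scale (SE 0.34, limma adjusted p 0.0216), and the ratio of mean TPM was 2.34. This call was lost in the fit of the 6 cisplatin libraries alone (limma adjusted p 0.058) and without any of wild-type cisplatin 1, FAN1KO cisplatin 1 or FAN1KO cisplatin 2 (limma adjusted p up to 0.0922).

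Tnfaip3 was a low gene that was also highest in FAN1KO cisplatin kidneys. Its levels were 2.40, 2.14 and 0.938 TPM in wild-type saline, 1.51, 2.496 and 1.53 in FAN1KO saline, 1.98, 4.80 and 4.45 in wild-type cisplatin and 11.6, 8.396 and 8.74 in FAN1KO cisplatin libraries. FAN1KO cisplatin libraries were above all 9 others. The genotype difference under cisplatin was 1.2 on the log2 scale (SE 0.30, limma adjusted p 0.0168), with a ratio of mean TPM of 2.56. Without wild-type cisplatin 1 or FAN1KO cisplatin 1 it was no longer called (limma adjusted p up to 0.0757).

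Birc3 (11796, chr9:7847468-7873205) encodes cIAP2, a ubiquitin ligase that keeps TNF receptor signalling on the side of survival. Its levels were 5.02, 5.01 and 2.77 TPM in wild-type saline, 3.07, 5.51 and 4.51 in FAN1KO saline, 3.86, 9.31 and 8.79 in wild-type cisplatin and 25.5, 20.4 and 17.2 in FAN1KO cisplatin libraries. The FAN1KO cisplatin libraries stood apart from the rest. The genotype difference under cisplatin was 1.47 (SE 0.32, limma adjusted p 0.00937), and the FAN1KO mean was 2.87 times the wild-type mean.

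Icam1 (15894, chr9:21015940-21028814) encodes an adhesion molecule that leukocytes bind. Its levels were 13.2, 13.01 and 10.1 TPM in wild-type saline, 6.82, 12.5 and 13.6 in FAN1KO saline, 12.1, 28.3 and 25.3 in wild-type cisplatin and 89.7, 82.6 and 60.2 in FAN1KO cisplatin libraries. The lowest FAN1KO cisplatin value was more than double the highest wild-type cisplatin value. The means were 77.5 ± 15.4 and 21.9 ± 8.60 (SD, n = 3), with a log2 fold change of 1.84 (SE 0.32, limma adjusted p 0.00369).

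**Figure D3:**
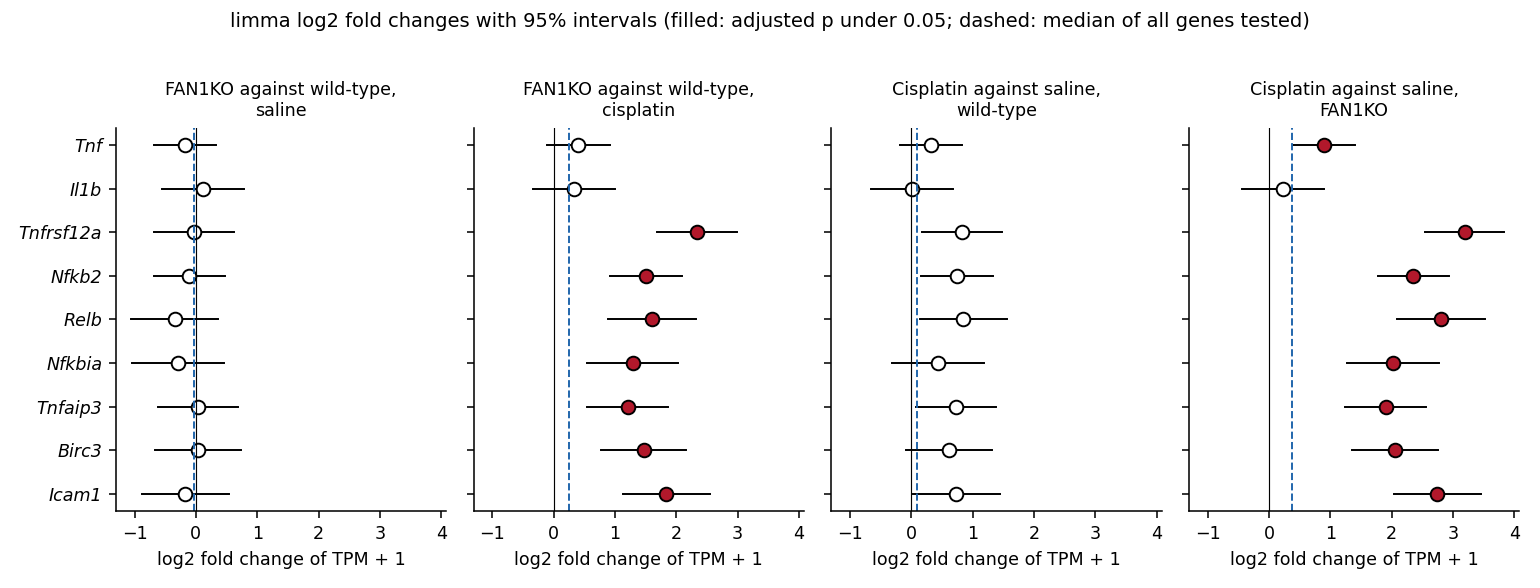
limma log2 fold changes of TPM + 1 (points) with 95% intervals (bars) for the 9 genes in 4 comparisons. Filled points have an adjusted p under 0.05, and dashed lines mark the median of all genes tested. For genotype under saline and for cisplatin in wild-type kidneys 0 genes are filled. For genotype under cisplatin 7 are filled, and for cisplatin in FAN1KO kidneys 8. These 8 include Tnf, which passed the filter only through cisplatin libraries.

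Without cisplatin, the genotypes were not told apart by these genes. Under saline, limma called 0 of 9, and 0 had an unadjusted p under 0.05, where 0.341% of all genes tested were called higher and 0.427% lower, and 8.38% had an unadjusted p under 0.05 either way. All 9 overlapped between the genotypes, while 4.62% of all genes had FAN1KO wholly above and 7.83% wholly below wild-type libraries. The log2 fold changes ran from -0.35 for Relb (95% interval -1.06 to 0.37) to 0.11 for Il1b (95% interval -0.56 to 0.78), with a median of -0.11 beside -0.037 for all genes. Differences within these intervals were not detectable with 3 mice a group.

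With cisplatin, FAN1KO kidneys rose in 8 of the 9 genes, all but Il1b, against 34.9% of all genes tested called higher and 4.9% lower. Of these 8, Tnf passed the filter only through cisplatin libraries, so its call is given as a description. The same 8 had every FAN1KO cisplatin library above every FAN1KO saline library, as 47.4% of all genes did, with 7.43% wholly below. The log2 fold changes of the called genes were 3.19 for Tnfrsf12a, 2.80 for Relb, 2.74 for Icam1, 2.35 for Nfkb2, 2.05 for Birc3, 2.02 for Nfkbia, 1.90 for Tnfaip3 and 0.89 for Tnf, and the median over the 9 was 2.05 beside 0.37 for all genes. As a ratio of mean TPM, Tnfrsf12a was 9.15, Relb 8.18 and Icam1 7.06 times its saline level.

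In wild-type kidneys, cisplatin gave no call among the 9 genes, where 0.0601% of all genes tested were called higher. All 9 differences were above 0, with a median of 0.73 beside 0.084 for all genes, and Relb, Tnfrsf12a, Nfkb2, Icam1 and Tnfaip3 had an unadjusted limma p under 0.05, as 2.55% of all genes did on the higher side. Their log2 fold changes were 0.85, 0.82, 0.74, 0.73 and 0.73. Replicates 2 and 3 of wild-type cisplatin were both above the wild-type saline range for 8 of the 9 genes, all but Il1b. Replicate 1, the library with Y-linked RNA, was within or below that range for all of them but Tnfrsf12a. In the 8 libraries without Y-linked RNA, an alternative chosen after seeing the data, Icam1 alone was called.

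The genotype by treatment interaction asks whether cisplatin moved a gene more in FAN1KO than in wild-type kidneys. It was called for 4 of the 9 genes, against 5.22% of all genes tested on the higher side and 1.02% on the lower, and 7 of the 9 had an unadjusted limma p under 0.05, against 21.4%. The interaction was 2.37 for Tnfrsf12a (SE 0.42, limma adjusted p 0.0150), 2.01 for Icam1 (SE 0.45, limma adjusted p 0.0323), 1.95 for Relb (SE 0.46, limma adjusted p 0.0362) and 1.61 for Nfkb2 (SE 0.37, limma adjusted p 0.0349). Nfkbia, Birc3 and Tnfaip3 had interactions of 1.58, 1.43 and 1.17 (limma adjusted p 0.0729, 0.0789 and 0.118), Tnf of 0.58 and Il1b of 0.22 (limma adjusted p 0.30 and 0.792). The number called depended on the fit. With the replicate number as a block 2 were called, Icam1 and Tnfrsf12a, and with a covariate for Y-linked RNA 7 were. Leaving out wild-type saline 1 or 2, or FAN1KO saline 1, or FAN1KO cisplatin 1 or 2, left 1 call, Tnfrsf12a, and leaving out FAN1KO saline 3 left 2.

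Because every library has the same TPM total, another scaling was set beside it, in which libraries were rescaled by their median ratio over genes. Between the genotypes under cisplatin this moved the all-gene median from 0.24 to -0.02 on the log2 scale, and calls of all genes from 2931 higher and 654 lower to 1300 higher and 1154 lower. In FAN1KO kidneys with cisplatin it moved from 0.37 to -0.03. All 7 genotype calls and all 8 calls with cisplatin remained under this scaling, with log2 fold changes of 0.94 for Tnfaip3 to 2.03 for Tnfrsf12a between the genotypes. The interaction of Tnfrsf12a alone lost its call (limma adjusted p 0.0574).

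Libraries with Y-linked RNA were compared with each other and apart from the rest. Under cisplatin, with 1 library of each genotype, the ratio of FAN1KO to wild-type TPM among the libraries with Y-linked RNA was 5.30 for Tnfrsf12a and 3.36 to 5.18 for the other 6 called genes. In the other libraries, 2 of each genotype, it was 5.09 for Tnfrsf12a and 2.12 to 3.22 for the others. The direction was thus the same in both, and the ratios outside Tnfrsf12a were larger where 1 library stood against 1. The libraries with Y-linked RNA were the lowest of their group for 8 of the 9 genes in wild-type and 7 in FAN1KO kidneys under saline, and for 9 and 8 under cisplatin, beside 68.2, 69.3, 69.5 and 65.4% of all genes. Tnfrsf12a differed in saline kidneys, where these libraries held its highest value in both genotypes.

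Within groups, the called genes other than Tnfrsf12a deviated together. Over the 12 libraries, the deviations of log2(TPM + 1) from group means correlated with a Pearson r of 0.76 to 0.99 over 15 pairs of Nfkb2, Relb, Nfkbia, Tnfaip3, Birc3 and Icam1, with a median of 0.94. Tnfrsf12a correlated with these 6 at -0.05 to 0.05, while its group means followed the same order under cisplatin. Il1b, although not called, had a median r of 0.90 with the called genes. These are descriptions over libraries that share depth and scaling. In each group, the library with Y-linked RNA was the lowest for 65.4% to 69.5% of all genes tested. Such correlations were not computed for pairs of other genes, so the pattern is not shown to be particular to these genes.

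**Figure D4:**
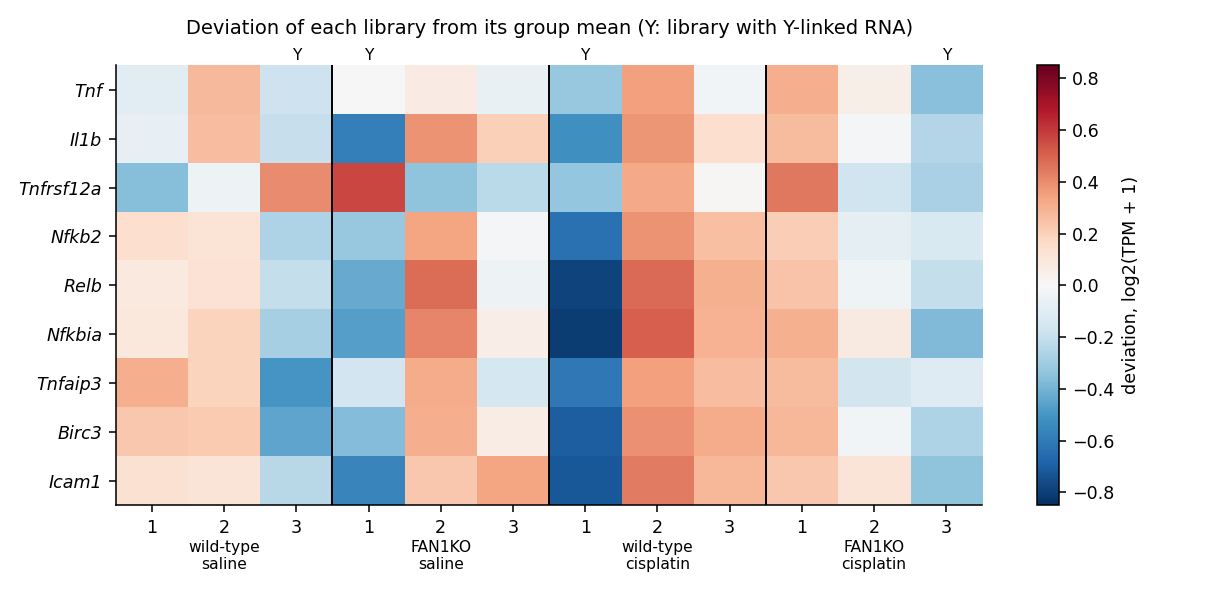
Deviation of log2(TPM + 1) from the group mean (colour) for the 9 genes (rows) in the 3 libraries of each group (columns), with Y above the libraries with Y-linked RNA. Wild-type cisplatin 1 is the lowest of its group for all 9 genes, down to -0.80 for Nfkbia, and Tnfrsf12a turns the other way in saline kidneys, at 0.40 in wild-type saline 3 and 0.57 in FAN1KO saline 1.

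Across all 12 libraries, the 3 tested genes most like each of the 9 were listed by Pearson r of log2(TPM + 1), as a description in which group differences and shared scaling enter. Nfkb2 and Relb were each other's nearest gene, with an r of 0.995. Rap2b and Ctxn1 followed for Nfkb2, and Adgrg1 and Rcc2 for Relb. For Icam1 they were Ctxn1, Impdh2-ps and Rhod, for Nfkbia Tmem222, Tnip2 and Kdelr3, for Birc3 Chrnb1, Plec and Nfkbiz, and for Tnfaip3 Egr1, Fosl2 and Meis3 (r of 0.989 to 0.998). For Tnfrsf12a they were Ppm1j and the cell cycle genes Cdk1 and Ccne1 (r of 0.980 to 0.984). The cytokines had lower values, with Zfp408, Tnfsf13b and Plekha2 for Tnf and Cadm4, Cxcl14 and Raly for Il1b (r of 0.957 to 0.978).

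The rest of the pathway was read from 6 lists of 93 genes, of which 78 were tested. The lists were chosen with earlier results of these data known, so their counts beside all genes are descriptions. Between the genotypes under cisplatin, 31 of 78 were called higher and 1 lower, beside 19.6% and 4.37% of all genes tested. With median-ratio scaling, 19 were higher and 1 lower, beside 8.68% and 7.71% of all genes. Among the 31 were Il1rn, Ccl20 and Cxcl2, which would not have passed the filter without FAN1KO cisplatin libraries, the group where they are high. Under saline 0 of 78 were called, beside 0.341% and 0.427% of all genes. The medians of the lists under cisplatin, beside 0.24 for all genes, were 0.74 for ligands, 0.54 for receptors and adaptors, 0.33 for kinases and ubiquitin enzymes, 0.87 for the other Rel and IkB genes, 0.55 for other feedback inhibitors and 1.11 for other targets. With scaling, the medians stayed above 0 in all 6 lists, at 0.044 for the kinases and ubiquitin enzymes.

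Of the ligands, 1 of 5 tested was called higher, Il1rn, the interleukin 1 receptor antagonist. It reached 1 TPM in the 3 FAN1KO cisplatin libraries and in 1 wild-type cisplatin library, so it was tested only through the group where it is high, and its values are given as a description. Its mean TPM was 6.11 ± 3.53 in FAN1KO and 0.700 ± 0.459 in wild-type cisplatin kidneys (SD, n = 3). The ratio of Il1rn to Il1b was 4.21, 1.75 and 3.84 in FAN1KO cisplatin libraries and 0.474, 0.617 and 0.445 in wild-type cisplatin libraries. Under saline it was at most 0.183 in any library, and Il1rn was at 0 in FAN1KO saline 1 and 2.

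Of 18 receptor and adaptor genes, 5 were called higher and 0 lower between the genotypes under cisplatin, a share not far from the 19.6% of all genes called higher. The largest rises were Tlr2, a Toll-like receptor (1.91), Traf2 (0.86) and Birc2 (0.70), which sit on TNF receptors, and Myd88 (0.61), the adaptor of Toll-like and interleukin 1 receptors. Of 15 kinase and ubiquitin genes, 5 were called higher and 0 lower. Ikbke rose by 1.2, Irak4 by 0.94, Map3k14, the NIK kinase of the noncanonical branch, by 0.77 and Ikbkb, the main IkB kinase, by 0.53 on the log2 scale. Myd88, Map3k14 and Ikbkb were not called with median-ratio scaling (limma adjusted p 0.110, 0.0734 and 0.0879). That scaling left 3 receptor and adaptor genes and 2 kinase and ubiquitin genes called higher, beside 8.68% of all genes.

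Of 7 other Rel and IkB genes, 5 were called higher and 0 lower, beside 19.6% and 4.37% of all genes tested. Nfkbiz, a nuclear IkB protein, rose by 1.62, Nfkbie by 1.23, Rela by 0.87 and Nfkbid by 0.78 on the log2 scale, and Nfkbid was not called with median-ratio scaling (limma adjusted p 0.0546). Of 9 other feedback inhibitors, 4 were called higher and 0 lower, namely Tnip2 (0.93), Zfp36 (0.92), a protein that destabilises cytokine mRNA, Otulin (0.59) and Tnip1 (0.55). Otulin and Tnip1 were not called with scaling (limma adjusted p 0.192 and 0.164). With that scaling, 3 of the 7 Rel and IkB genes and 2 of the 9 feedback inhibitors were called higher, beside 8.68% of all genes.

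Of 24 other targets, 11 were called higher and 1 lower between the genotypes under cisplatin, beside 19.6% and 4.37% of all genes tested. With median-ratio scaling 8 were called higher and 1 lower, beside 8.68% and 7.71% of all genes. Among the 11, Ccl20 reached 1 TPM only in FAN1KO cisplatin libraries (1.22 to 3.76, at most 0.633 elsewhere). It was thus tested only through the group where it is high, and its call is a description. Cxcl2, also among the 11, was at most 0.111 TPM in saline libraries and 0.191 in the lowest wild-type cisplatin library. Fewer than 3 libraries outside FAN1KO cisplatin thus reached 1 TPM, and its call too is a description. The largest rises were Lcn2, a secreted injury marker (4.41), C3, the central complement protein (3.03), and Cxcl1, a neutrophil chemokine (3.02). Lcn2 had a mean TPM of 377 ± 128 in FAN1KO against 22.4 ± 18.9 in wild-type cisplatin kidneys (SD, n = 3). Sod2, the mitochondrial superoxide dismutase, was the target called lower. It fell from 159 ± 7.13 to 100.4 ± 7.96 TPM, a log2 fold change of -0.66 (limma adjusted p 0.00111), and stayed lower with scaling (-0.96).

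**Figure D5:**
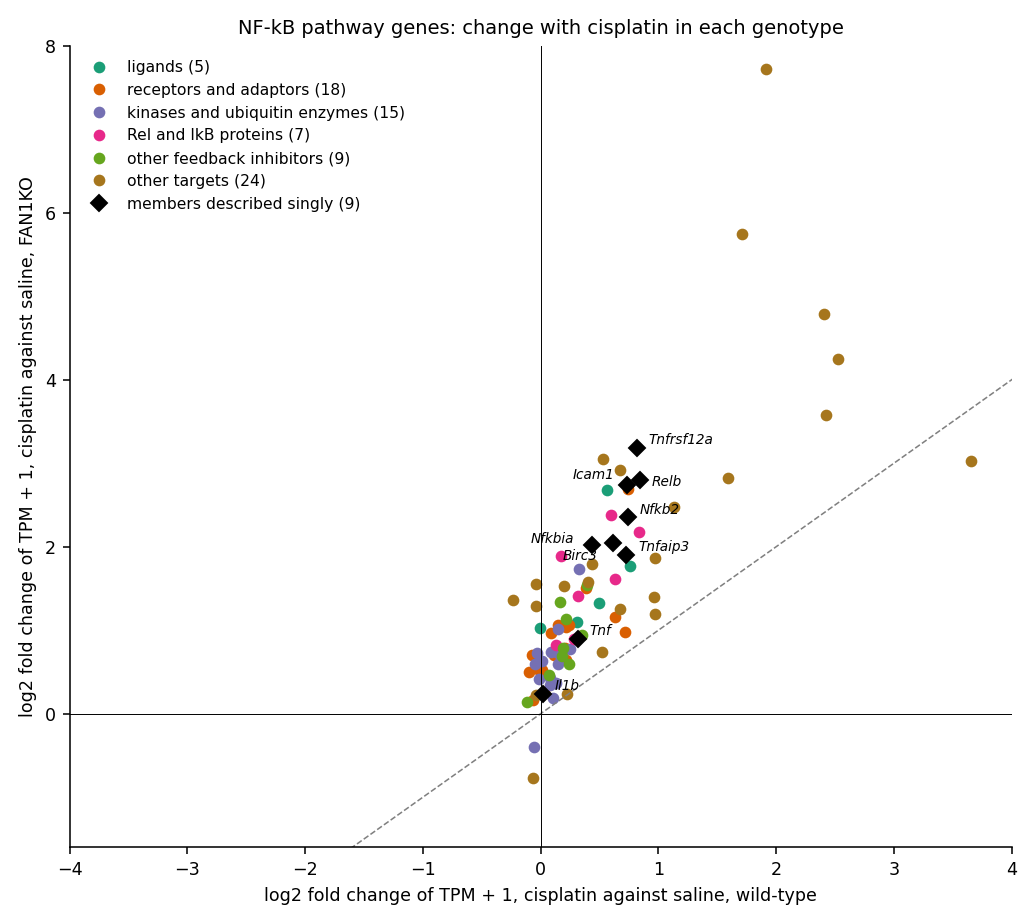
Log2 fold change of TPM + 1 with cisplatin in FAN1KO kidneys (vertical) against that in wild-type kidneys (horizontal) for 78 pathway genes by list (dots) and the 9 genes (diamonds). The dashed line marks equal change. Of the 78, 75 lie above it, with 13 interactions called higher and 1 lower, beside 5.22% and 1.02% of all genes, whose median interaction of 0.28 also lies above it. With median-ratio scaling 65 of 78 lie above it, with 7 called higher and 0 lower, beside an all-gene median of -0.03.

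Some cell type markers also differed between the genotypes under cisplatin, and their part in the results was not tested. Of all genes tested, 19.6% were called higher in this comparison and 4.37% lower. Between the genotypes under cisplatin, 2 of 6 macrophage and monocyte markers were called higher, with summed TPM of 123 to 260.1 in FAN1KO and 55.0 to 163 in wild-type libraries. For T cells 1 of 6 was called higher (5.37 to 17.2 against 2.27 to 9.90), for B cells 0 of 2 tested (2.04 to 7.95 against 1.49 to 4.15) and for neutrophils 0 of 2 tested (7.34 to 11.2 against 1.55 to 5.57, with Mpo at 0 in all 3 wild-type libraries). Endothelial markers, from cells known to express Icam1, had 0 of 5 called, and their sum was 20.2 to 71.0 in FAN1KO and 39.5 to 168 in wild-type libraries. With median-ratio scaling, 1 macrophage and monocyte marker and 0 T cell markers were called higher, beside 8.68% of all genes tested.

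Tubule and blood markers differed more, where 19.6% of all genes tested were called higher and 4.37% lower. Of 6 proximal tubule markers, 5 were called lower, with sums of 1146 to 2286 against 3367 to 4315, and all 4 injured tubule markers were called higher, with sums of 778 to 1155 against 32.8 to 148. The latter list holds Lcn2 and Vcam1, which are also in the list of NF-kB targets. It also holds Krt20, at most 0.414 TPM in saline libraries and 0.720 in the lowest wild-type cisplatin library. Krt20 thus passed the filter only with FAN1KO cisplatin libraries, where it is high, and its call is a description. With median-ratio scaling, 4 proximal tubule markers were called lower and 3 injured tubule markers higher, beside 7.71% and 8.68% of all genes. Of 4 red blood cell markers, 3 were in the table and all 3 were called lower, with sums of 5.54 to 72.4 against 2300.2 to 6531. Thick ascending limb, podocyte and fibroblast markers had 0 called of 3, 3 and 4.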

How the data were processed

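Whole-kidney RNA was sequenced from 12 mice in 4 groups of 3, grouped and numbered as the labels give them. A single table was deposited by the authors, of TPM by NCBI Gene number, which sum to 1000000 in each library. All 12 columns were used (0 left out). The submitters' processing notes name mm10 and limma, and the aligner and annotation are not given in the sources used here. Gene names, positions and overlaps came from RefSeq on GRCm38.p6, the assembly of mm10, and 1904 genes had no name there. TPM depend on gene length and on the composition of the whole library. Replicates are separate mice. In the main fit, limma p-values set a group difference against the spread between mice within groups, pooled over the 4 groups.

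Genes that reached 1 TPM in 3 or more libraries were tested. The 4 group means were fitted to log2(TPM + 1) of all 12 libraries with limma 3.58.1 (R 4.3.3), using a mean-variance trend and Benjamini–Hochberg adjustment. Single ratios were compared by the two-sided exact permutation test. Read counts were worked out from the step size of the TPM, and all 232991 values above 0 came out whole within 0.05. limma's voom was run on these reads as an alternative. Simulated data returned reads of 538 of 539 genes. In other simulated data, limma called 197 of 200 genes changed 2-fold, with 13 unchanged genes called of 14589 tested. Those data had a fixed spread between libraries and no shift of whole libraries, and low genes were not among the changed ones. The counts therefore do not give the power in the real data.

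The 9 genes and the lists were chosen with earlier results of these data known. Named from each list are the called genes with the largest rise and fall under cisplatin between genotypes, at most 4 a list, and the 3 genes most like each of the 9; others were chosen after their values were seen. Alternatives were pseudocount, filter, scaling, replicate block, fewer libraries, no trend and a Y-linked covariate. Python 3.11.15, numpy 2.4.6, pandas 2.3.3, scipy 1.17.1 and matplotlib 3.10.9 were used.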

Additional observations from a re-analysis of the deposited data

Results flagged for a closer look

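Of the 9 genes, 4 had a genotype by treatment interaction called higher by limma. Of all genes tested, 5.22% were called higher and 1.02% lower. The interaction tests whether cisplatin moved a gene differently in FAN1KO and wild-type kidneys. On the log2 scale the interaction was 2.37 for Tnfrsf12a, 2.01 for Icam1, 1.95 for Relb and 1.61 for Nfkb2, with each group's values given above. Each of these 4 calls was lost in some fits. Nfkb2 and Relb were not called with the replicate block, and Icam1 was not called without some single libraries. Tnfrsf12a was not called with median-ratio scaling. No explanation was tested.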

How the results depend on the processing

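Depth limited Tnf to 4 to 56 and Il1b to 23 to 67 reads a library, and 3 mice a group left changes within the printed intervals undetectable. Over all alternatives that could be fitted, the genotype comparison under cisplatin gave 7 calls except without single libraries (5 to 7) and in the fit of its 6 libraries alone, where Nfkbia was lost; cisplatin in FAN1KO gave 8 calls, or 7 to 8 without single libraries. Cisplatin in wild-type kidneys gave 1 call in the 8 libraries without Y-linked RNA. The interaction could not be fitted to fewer groups than 4; it gave 2 calls with the replicate block (Nfkb2 and Relb had a limma adjusted p of 0.0552 and 0.0514), 7 with the Y-linked covariate, 7 in the 8 libraries and 1 to 4 without single libraries. Deviations of same-numbered mice had mean correlations of -0.24 to -0.14 over the 4 comparisons, with single pairs from -0.61 to 0.60. The library with Y-linked RNA, lowest of its group for most genes, had different numbers in the groups compared. These correlations therefore cannot decide whether the numbers pair mice. The block changed no other count of the 9 genes. Over all genes, the block took interaction calls from 782 higher and 153 lower to 351 and 73, and the covariate to 4088 and 646. For genotype under cisplatin, 2931 and 654 became 1721 and 454 in its 6 libraries alone, 4328 and 1162 in the 8 libraries and 6035 and 1288 with the covariate, and for cisplatin in FAN1KO 5229 and 733 became 7919 and 1222 with the covariate. Under saline, 51 higher and 64 lower became 11 and 16 in the 6 libraries alone, 36 and 36 without a filter, 32 and 29 with the block, 117 and 178 in the 8 libraries and 173 and 248 with the covariate. In wild-type kidneys, 9 and 0 became 0 and 0 with the block or in the 6 libraries alone, 57 and 1 with the covariate and 60 and 3 in the 8 libraries. Scaling gave interaction calls of 332 and 156 and, in wild-type kidneys, 14 and 1; for cisplatin in FAN1KO it gave 2157 and 2101. Without single libraries, the genotype comparison under cisplatin gave 1169 to 2943 higher (1169 without FAN1KO cisplatin 1, 1442 without wild-type cisplatin 1, 1536 without FAN1KO cisplatin 2) and 370 to 605 lower, and the saline one 22 to 38 and 19 to 41. Cisplatin in FAN1KO gave 3140 to 5391 higher, with 3140 without FAN1KO cisplatin 1, and 482 to 685 lower. Cisplatin in wild-type kidneys gave 41 without wild-type cisplatin 1 and 0 without any other of its 6 libraries. The interaction gave 217 to 981 higher, with 217 without wild-type saline 1 and 981 without FAN1KO cisplatin 3, and 51 to 216 lower.

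Only values that were not called changed sign, and the cause was not tested. For genotype under saline, the 8 libraries gave -0.13 for Tnfaip3 and -0.0074 for Birc3, and median-ratio scaling 0.024 for Tnfrsf12a. Without single libraries, Il1b ran from -0.080 to 0.40, Nfkb2 from -0.27 to 0.055, Tnfaip3 from -0.22 to 0.19, Birc3 from -0.19 to 0.22, Icam1 from -0.34 to 0.11 and Tnfrsf12a from -0.32 to 0.17. The other sign changes were all of Il1b. With cisplatin in FAN1KO it was -0.032 with scaling and -0.059 to 0.42 without single libraries. In wild-type kidneys it was -0.024 with a pseudocount of 0.1, -0.055 with scaling, -0.091 by voom and -0.17 to 0.28 without single libraries. Its interaction was -0.12 in the 8 libraries and -0.077 to 0.41 without single libraries.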

Other observations

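Further NF-kB targets, chosen after their values were seen, rose with cisplatin in FAN1KO kidneys, where 34.9% of all genes tested were called higher. By limma, Vcam1, a leukocyte adhesion molecule, rose by 4.25, the monocyte chemokine gene Ccl2 by 3.57, the T cell chemokine gene Ccl5 by 3.03 and Cxcl10 by 2.82 on the log2 scale (adjusted p 0.000522, 0.00165, 0.0046 and 0.00207). In wild-type kidneys the same differences were 2.53, 2.43, 3.66 and 1.59, not called by limma (adjusted p 0.387, 0.631, 0.119 and 1). Mean TPM of Ccl5 went from 2.09 ± 0.978 to 47.1 ± 32.0 in wild-type and from 2.97 ± 2.15 to 27.3 ± 4.24 in FAN1KO kidneys (SD, n = 3), a larger difference in wild-type kidneys. The interaction was not called for Vcam1, Ccl2, Ccl5 or Cxcl10 (limma adjusted p 0.214, 0.438, 0.701 and 0.314). Under cisplatin, Ccl2, Ccl5 and Cxcl10 were not called between the genotypes. The TNF receptor genes Tnfrsf1a and Tnfrsf1b rose by 1.51 and 1.16 with cisplatin in FAN1KO kidneys (limma adjusted p 0.0100 and 0.0195), beside 0.39 and 0.63 in wild-type kidneys, which were not called. Neither was called between the genotypes under cisplatin.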
